A study of Sus scrofa with 6 samples.

Results

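Genes that build fatty acids, phospholipids and sterols were followed in the lungs of piglets around birth. The set held 51 genes chosen by their known place in these pathways and looked up by symbol among the annotated pig mRNAs. A row was found for 37 of them among the 14579 mRNAs of the deposited table. SREBF1, INSIG2, ELOVL1, ELOVL6, ACSL5, AGPAT2, AGPAT3, LPIN2, CHKB, PEMT, PMVK, MVD, EBP and STARD4 were not analysed here. The fetal group comprised 3 piglets from 3 sows, sampled in the last day of gestation. The neonatal group comprised 3 piglets from other sows, sampled 2 days after birth. All were female crosses of a Tibetan sire and a Meishan dam, none was treated or carried an engineered allele, and each library came from the lung tissue of 1 piglet. Tissue of this kind mixes many cell types, so more cells of a type and more RNA per cell cannot be told apart.

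Sterols and fatty acids are both built from cytosolic acetyl-CoA. The sterol branch runs through mevalonate, farnesyl diphosphate, squalene and lanosterol to cholesterol, and its enzymes are controlled together by a membrane-bound transcription factor, SREBF2, which SCAP escorts out of the endoplasmic reticulum and the INSIG proteins hold back when sterols are plentiful. The fatty acid branch, in which the related factor SREBF1 has the larger part, makes palmitate and then desaturates and lengthens it. In the lung, alveolar type II cells join these fatty acids to choline to make the disaturated phosphatidylcholine of surfactant, which is stored in lamellar bodies and secreted into the airspace around birth.

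Levels are FPKM, fragments per kilobase of transcript scaled to the mapped reads of a library, which the authors computed with Cufflinks. Differences are neonatal minus fetal on the log2(FPKM + 1) scale, fitted over all mRNAs in limma, and are written here as log2(FC). This scale understates the change of low genes. An adjusted p (Benjamini-Hochberg, all mRNAs) of 0.05 or less is called past the threshold. The table holds no read counts, so the depth behind a single value is unknown and the spread between the 3 piglets of a group is the only error. The median FPKM of a library lay between 4.99 and 6.11, and between 3.03% and 5.68% of the mRNAs were listed at 0. The surfactant protein gene SFTPC, which marks the alveolar type II cells of lung, stood between 3171 and 3902 FPKM in the fetal libraries and between 4233 and 8790 FPKM in the neonatal ones.

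Of the 37 genes, 7 rose and 1 fell past the threshold in the neonatal group. Those that rose were the regulator SREBF2, the sterol enzymes HMGCS1, FDPS, LSS and CYP51A1, and the fatty acid desaturases FADS1 and FADS2. The gene that fell was CHPT1, which makes the last step of phosphatidylcholine synthesis. Over all mRNAs, 6.87% passed the threshold, 5.41% as higher and 1.45% as lower in the neonatal group. Of all calls 78.8% were higher, a share that was 66.0% after median-of-ratios scaling and 57.9% after quantile normalization. In 17 genes the lowest neonatal value exceeded the highest fetal value, and in 6 genes the reverse was true. Among all mRNAs the corresponding shares were 20.9% and 9.64%. The 17 genes include PCYT1B, which met the authors' filter (FPKM above 0.5 in at least 1 sample) only through the neonatal group. The median log2(FC) of the 37 genes was 0.47, against 0.13 for all mRNAs.

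The branches differed in direction. Among the 14579 mRNAs, 8729 had a higher mean in the neonatal group. All 13 sterol enzymes had a higher mean in the neonatal group, and their median log2(FC) was 0.83. The 10 fatty acid genes were split into 5 with a higher and 5 with a lower mean, with a median of 0.10. In the phosphatidylcholine branch 2 of 5 genes had a higher mean, with a median of -0.27. They were PCYT1A and PCYT1B, and PCYT1B met the authors' filter only through the neonatal group. In sterol transport 2 of 4 genes had a higher mean, with a median of -0.30. Those 2 transport genes, NPC1 and NPC2, were lower after quantile normalization, and NPC1 also after median-of-ratios scaling. These medians describe the branches, whose differences from each other were not tested.

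**Figure D1:**
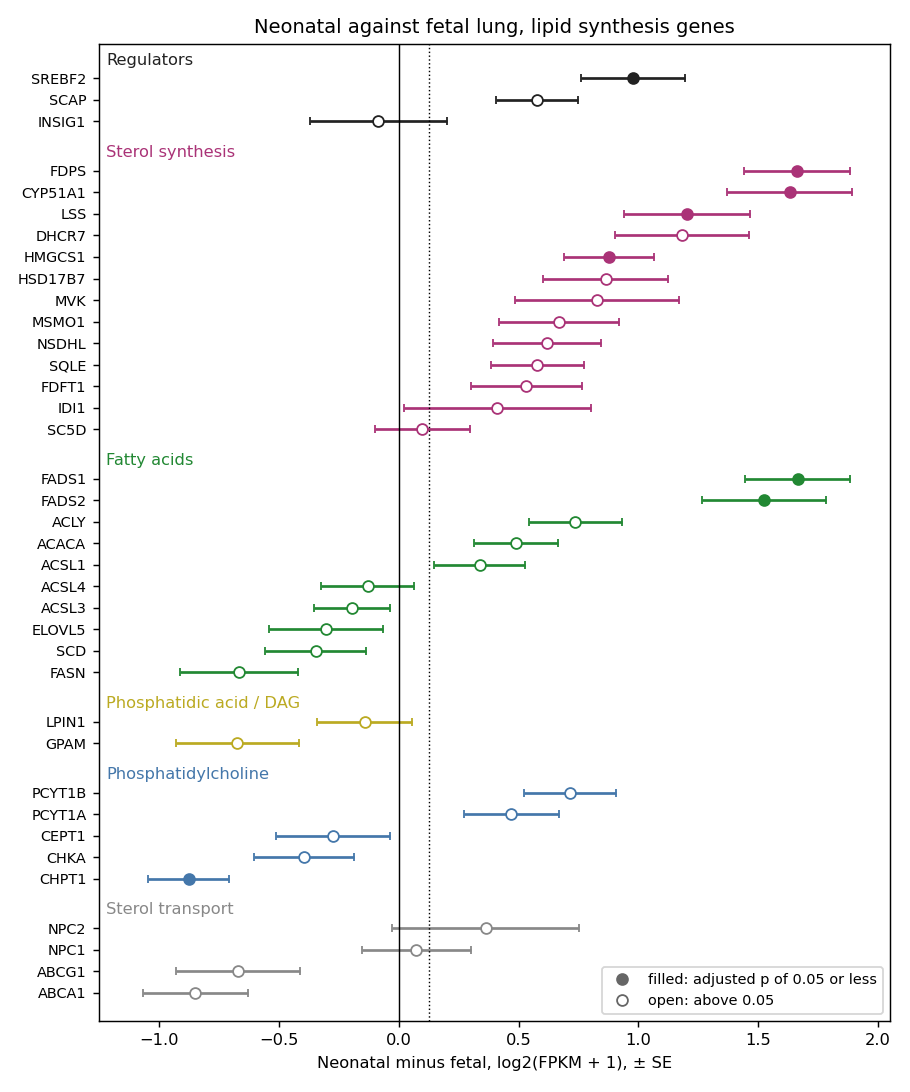
The difference between the neonatal and the fetal group on the log2(FPKM + 1) scale is plotted for each of the 37 genes, by branch, as a point with its standard error. Filled points have an adjusted p of 0.05 or less, and the dotted line marks the median of all mRNAs, 0.13. The sterol enzymes all lie to the right of 0, from 0.10 for SC5D to 1.66 for FDPS, while the other branches spread to both sides or, for GPAM and LPIN1, lie to the left.

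SREBF2 (ENSSSCG00000026092) was the regulator that rose. Its fetal level was 12.3 FPKM in Fetal1, 16.6 in Fetal2 and 10.9 in Fetal3, and its neonatal level 32.0 FPKM in Neonatal1, 24.3 in Neonatal2 and 24.5 in Neonatal3. All neonatal libraries were above all fetal ones, and the mean went from 13.3 ± 2.98 to 27.0 ± 4.40 FPKM (SD, n = 3 each). The log2(FC) was 0.98 (standard error 0.22, adjusted p = 0.0400). The call depended on scaling, since the adjusted p was 0.0913 after median-of-ratios scaling of the libraries, which divides each by its typical ratio to the others, and 0.132 after quantile normalization.

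SCAP, the escort of SREBF2, had 8.54, 8.27 and 10.5 FPKM in the fetal libraries and 14.5, 14.2 and 13.3 FPKM in the neonatal ones. These groups did not overlap either, and the log2(FC) was 0.58 (standard error 0.17, adjusted p = 0.0930). INSIG1 retains the SCAP complex in the endoplasmic reticulum and is itself a classical SREBP target. It was the most abundant of the regulators per length, at 62.2, 42.5 and 43.2 FPKM in the fetal libraries and 32.1, 47.4 and 62.7 FPKM in the neonatal ones, and the groups overlapped over their whole range (log2(FC) -0.08, standard error 0.29, adjusted p = 0.878). Its sign turned positive without Fetal1 and without Neonatal1. The ratio of SREBF2 to INSIG1 within a library is unchanged when a library is divided by a factor, though not under quantile normalization. This ratio was 0.198, 0.391 and 0.252 in the fetal group. It was 0.9985, 0.512 and 0.3915 in the neonatal group, where the lowest value was almost level with the highest fetal one.

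The sterol enzymes can be read in the order of the pathway. HMGCS1 (ENSSSCG00000016872) makes HMG-CoA, the precursor of mevalonate. It stood at 5.56, 4.36 and 4.02 FPKM in the fetal libraries and at 8.54, 9.31 and 10.1 FPKM in the neonatal ones. The neonatal mean was 2.01 times the fetal mean, and the log2(FC) was 0.88 (standard error 0.19, adjusted p = 0.0352).

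The next steps turn mevalonate into isoprenoid units. MVK, mevalonate kinase, had 2.81, 1.77 and 2.24 FPKM in the fetal group and 2.64, 4.74 and 8.14 FPKM in the neonatal group, so that the groups overlapped through Neonatal1 (log2(FC) 0.83, adjusted p = 0.194). IDI1, the isopentenyl diphosphate isomerase, was barely measured, from being listed at 0 in Fetal3 to 1.63 FPKM in Neonatal3, and gives no usable comparison. FDPS (ENSSSCG00000006512) joins isoprenoid units to farnesyl diphosphate, the branch point to sterols, ubiquinone and protein prenylation. It and CYP51A1 had the highest log2(FC) of the sterol enzymes, and its values went from 10.1, 7.14 and 12.0 FPKM in the fetal libraries to 29.8, 37.3 and 30.5 FPKM in the neonatal ones. The means were 9.74 ± 2.44 and 32.5 ± 4.16 FPKM (SD, n = 3 each), and the adjusted p of the log2(FC), 1.66 with a standard error of 0.22, was 0.00850. The gene moved from percentile 61.0 to 73.6 of all mRNAs in the fetal libraries to percentile 86.3 to 89.9 in the neonatal ones.

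Squalene is made by FDFT1, oxidised by SQLE and closed to lanosterol by LSS. FDFT1 had 21.2, 15.0 and 16.9 FPKM before birth and 20.5, 25.2 and 33.3 FPKM after it, with overlap through Fetal1 and Neonatal1 (log2(FC) 0.53, adjusted p = 0.213). SQLE, a flux-controlling step, had 20.5, 18.4 and 20.2 FPKM in the fetal libraries and 24.3, 35.9 and 30.5 FPKM in the neonatal ones. Its groups did not overlap, but the log2(FC) of 0.58 (standard error 0.19) had an adjusted p of 0.125. LSS (ENSSSCG00000021418) rose, from 16.5, 10.3 and 15.7 FPKM to 24.5, 37.1 and 40.6 FPKM. Its neonatal mean was 2.41 times the fetal mean (log2(FC) 1.20, standard error 0.26, adjusted p = 0.0384).

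CYP51A1 (ENSSSCG00000015311), the lanosterol demethylase that opens the last part of the pathway, stood at 8.91, 9.78 and 6.92 FPKM in the fetal libraries and at 19.9, 30.4 and 37.3 FPKM in the neonatal ones. The lowest neonatal value was well above the highest fetal one, and the means were 8.54 ± 1.47 and 29.2 ± 8.74 FPKM (SD, n = 3 each; log2(FC) 1.63, standard error 0.26, adjusted p = 0.0145). The enzymes that follow it, MSMO1, NSDHL and HSD17B7, remove the remaining methyl groups at the sterol ring. Their neonatal values lay above all fetal values too. The log2(FC) was 0.67 for MSMO1, 0.62 for NSDHL and 0.86 for HSD17B7, but the adjusted p was 0.161, 0.152 and 0.0974 in turn. SC5D, a late desaturase, was level, at 9.57 to 14.1 FPKM before and 11.9 to 14.4 FPKM after birth (log2(FC) 0.10, adjusted p = 0.789), and its sign turned negative under either scaling. DHCR7, the reductase of the last step, had 4.34, 1.78 and 1.86 FPKM in the fetal group and 6.59, 6.76 and 7.39 FPKM in the neonatal group. It lay just outside the threshold (log2(FC) 1.18, standard error 0.28, adjusted p = 0.0506), and without Fetal1, the highest fetal value, its adjusted p was 0.0351. With mRNAs of FPKM above 1 in at least 3 samples alone in the fit it was 0.0396. It stayed above the threshold, at 0.0958 to 0.197, with any other library left out. After median-of-ratios scaling it was 0.0611, and after quantile normalization 0.0583.

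**Figure D2:**
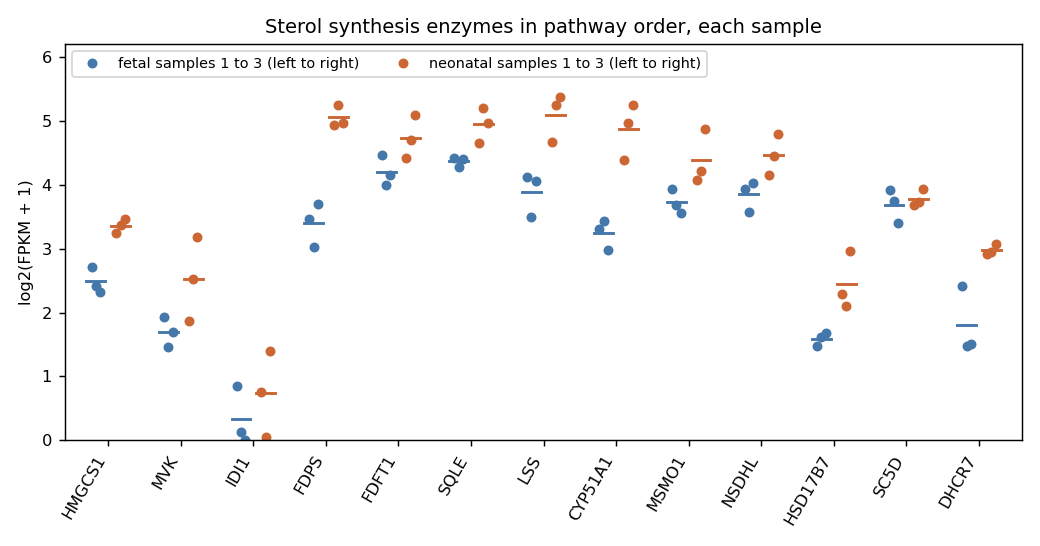
The log2(FPKM + 1) of the 13 sterol enzymes is plotted in pathway order, with 3 fetal (blue) and 3 neonatal (orange) samples per gene and a bar at each group mean. For 9 enzymes all neonatal points lie above all fetal points, as holds for 20.9% of all mRNAs, while MVK, IDI1, FDFT1 and SC5D overlap.

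In all, 4 of the 13 sterol enzymes passed the threshold, 10 reached an unadjusted p under 0.05, against 24.2% of all mRNAs, and 9 had groups that did not overlap. The sum of their FPKM was between 106.1 and 135.2 in the fetal libraries and between 186.0 and 276.0 in the neonatal ones. The FPKM of all mRNAs also summed higher after birth, to between 491500 and 778000 against 339500 to 471200. As a share of that total the sterol enzymes took 0.0250% to 0.0318% before and 0.0355% to 0.0399% after birth, still without overlap. The neonatal mean was 1.96 times the fetal mean as a sum and 1.29 times as a share, and 11 of the 13 enzymes had a higher mean share in the neonatal group, against 27.6% of all mRNAs. After median-of-ratios scaling 12 of 13 still had a higher neonatal mean, with a median log2(FC) of 0.69, while the median of all mRNAs moved to -0.0090. The neonatal libraries were not alike. Neonatal1 held the lowest neonatal value of 11 of the 13 enzymes, which is 84.6% against 46.6% of all mRNAs, and 61.5% against 37.0% after scaling, a comparison added after the data were seen. When each enzyme was set against its own fetal mean, the branch median was 0.43 in Neonatal1, 0.82 in Neonatal2 and 1.16 in Neonatal3. SREBF2 did not follow this order, since its highest value was in Neonatal1.

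**Figure D3:**
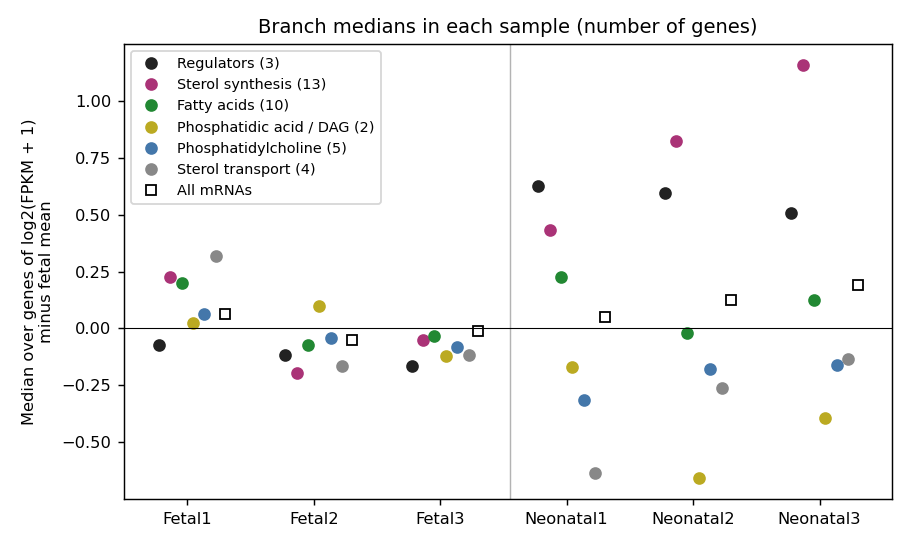
For each sample, the median over the genes of a branch of log2(FPKM + 1) minus the fetal mean of the gene is plotted, with the median over all mRNAs as an open square. The sterol enzymes lie at 0.43, 0.82 and 1.16 in the neonatal samples, above all mRNAs in each, whereas the phosphatidylcholine and transport genes lie below 0 in each neonatal sample.

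The fatty acid branch did not move as a block. At its start, ACLY supplies cytosolic acetyl-CoA to sterols and fatty acids alike, and its neonatal values of 27.0 to 38.6 FPKM lay above its fetal values of 18.9 to 20.6 FPKM (log2(FC) 0.74, standard error 0.19, adjusted p = 0.0681). Without Neonatal1, its lowest neonatal value, the adjusted p was 0.0345, and with any other library left out it was 0.147 to 0.212. After median-of-ratios scaling it was 0.0800, and after quantile normalization 0.0902. ACACA, the carboxylase that commits acetyl-CoA to fatty acids, had 7.02 to 9.25 FPKM in the fetal and 10.8 to 12.0 FPKM in the neonatal libraries, again without overlap (log2(FC) 0.49, adjusted p = 0.145).

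FASN, which builds palmitate, had its values on the other side. It was the most abundant fatty acid gene per length, at 136.7, 82.6 and 126.3 FPKM in the fetal libraries and 68.0, 80.0 and 64.4 FPKM in the neonatal ones. All neonatal values lay below all fetal values, although Fetal2 and Neonatal2 were close, and the log2(FC) of -0.67 (standard error 0.25) had an adjusted p of 0.156. After quantile normalization FASN passed the threshold as lower (adjusted p = 0.0262), and after median-of-ratios scaling its adjusted p was 0.0647. SCD, which desaturates palmitate and stearate to monounsaturated acids, had 43.5, 28.4 and 34.9 FPKM in the fetal group and 25.5, 25.5 and 31.5 FPKM in the neonatal group. These overlapped (log2(FC) -0.35, adjusted p = 0.355). After median-of-ratios scaling all neonatal values of SCD were below the fetal ones (adjusted p = 0.118), and after quantile normalization the adjusted p was 0.0546. Within a library, the ratio of FDPS to FASN was 0.0740, 0.0865 and 0.0948 before birth and 0.438, 0.467 and 0.473 after it, and that of ACLY to FASN was 0.150, 0.229 and 0.163 before and 0.397, 0.482 and 0.5835 after. Both ratios were higher in each neonatal library than in any fetal one. This follows from the values above, with FDPS and ACLY higher and FASN lower in every neonatal library, and adds no further evidence.

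The polyunsaturated fatty acid desaturases rose the most of this branch. FADS1 (ENSSSCG00000024015) stood at 3.38, 3.95 and 2.27 FPKM in the fetal libraries and at 11.3, 11.1 and 14.2 FPKM in the neonatal ones. Its mean rose 3.81 times, which is 1.66 on the log2(FPKM + 1) scale (standard error 0.22, adjusted p = 0.00795). FADS2 (ENSSSCG00000013072), which acts before FADS1 in the synthesis of arachidonic and eicosapentaenoic acid, had 5.47, 2.36 and 3.98 FPKM before birth and 11.8, 13.3 and 13.1 FPKM after it (log2(FC) 1.52, standard error 0.26, adjusted p = 0.0180). In both genes the lowest neonatal value was above the highest fetal one with a wide gap, and the neonatal libraries were close to each other. FADS3, FADS2 and FADS1 are consecutive protein-coding genes on chromosome 2 in the RefSeq annotation of Sscrofa11.1, a later build than that of the deposited table. FADS3, which is no member of the set, had 1.08 to 2.26 FPKM before and 3.33 to 5.38 FPKM after birth (log2(FC) 0.98, adjusted p = 0.0668). The ratio of FADS2 to SCD within a library was between 0.0831 and 0.126 in the fetal group and between 0.415 and 0.523 in the neonatal group.

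The elongase and the acyl-CoA synthetases showed small differences. ELOVL5, which lengthens polyunsaturated acids, had a log2(FC) of -0.30 (adjusted p = 0.470), and 1 of its neonatal values, 14.4 FPKM in Neonatal2, was far below the others. Its groups overlapped, but after median-of-ratios scaling all neonatal values were below the fetal ones. ACSL1, ACSL3 and ACSL4, which activate free fatty acids to their CoA esters, differed by a log2(FC) of 0.34, -0.19 and -0.13, and their adjusted p was 0.317, 0.491 and 0.716. The neonatal values of ACSL3, 11.3 to 12.9 FPKM, all lay below its fetal values, 13.4 to 14.4 FPKM, while ACSL1 and ACSL4 overlapped. For ACSL4 the sign turned without Fetal1.

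Phosphatidic acid and diacylglycerol, the precursors of phospholipids, were represented by GPAM and LPIN1. GPAM, the mitochondrial glycerol-phosphate acyltransferase, had 4.998, 4.52 and 3.22 FPKM before and 3.12, 1.48 and 2.37 FPKM after birth, barely without overlap (log2(FC) -0.67, standard error 0.26, adjusted p = 0.165). LPIN1, a phosphatidate phosphatase, was low throughout, at 0.815, 1.18 and 1.11 FPKM in the fetal libraries and 1.02, 0.705 and 0.808 FPKM in the neonatal ones (log2(FC) -0.14, adjusted p = 0.695).

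Phosphatidylcholine is made in 3 steps, by choline kinase, a cytidylyl transferase and a choline phosphotransferase. CHKA, the kinase, had 12.0, 10.1 and 14.1 FPKM before and 8.95, 7.28 and 10.6 FPKM after birth, with overlap between Fetal2 and Neonatal3 (log2(FC) -0.40, adjusted p = 0.289). After median-of-ratios scaling all its neonatal values were below the fetal ones (adjusted p = 0.132). PCYT1A, the rate-limiting cytidylyl transferase, had 4.80 to 5.68 FPKM in the fetal and 6.43 to 9.63 FPKM in the neonatal libraries (log2(FC) 0.47, standard error 0.20, adjusted p = 0.203), and its groups overlapped after median-of-ratios scaling. Its isoform PCYT1B was far lower, at no more than 0.143 FPKM in the fetal and 0.697 to 0.864 FPKM in the neonatal libraries (log2(FC) 0.71, adjusted p = 0.0736). PCYT1B met the authors' filter, FPKM above 0.5 in at least 1 sample, only through the neonatal group. Its higher neonatal mean and lack of overlap were thus tied to its being kept, and are not evidence of a rise.

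CHPT1 (ENSSSCG00000000864), the choline phosphotransferase, fell. It stood at 32.0, 28.4 and 27.6 FPKM in the fetal libraries and at 16.7, 16.1 and 13.8 FPKM in the neonatal ones, and the groups were far apart against the spread within them. The fetal mean of 29.3 ± 2.32 FPKM was 1.89 times the neonatal mean of 15.5 ± 1.53 FPKM (SD, n = 3 each; log2(FC) -0.88, standard error 0.17, adjusted p = 0.0263). After median-of-ratios scaling the adjusted p was 0.0149. CEPT1, which makes both phosphatidylcholine and phosphatidylethanolamine, overlapped between the groups, at 4.55 to 8.32 FPKM before and 5.05 to 5.75 FPKM after birth (log2(FC) -0.27, adjusted p = 0.512). CHPT1 was above CEPT1 per length in all 6 libraries, by a ratio of 3.41 to 6.08 in the fetal and 2.73 to 3.25 in the neonatal group.

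**Figure D4:**
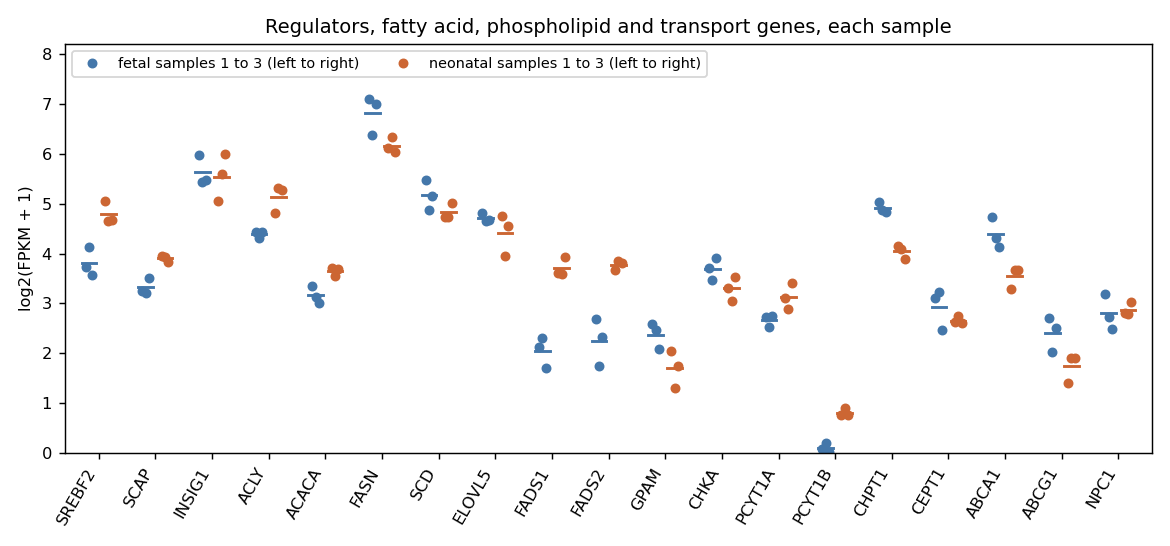
The log2(FPKM + 1) of 19 genes outside sterol synthesis is plotted with 3 fetal (blue) and 3 neonatal (orange) samples per gene and a bar at each group mean. FADS1 and FADS2 are higher, and CHPT1 and ABCA1 lower, in every neonatal sample, while INSIG1 and NPC1 overlap.

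Among the transport genes, ABCA1 and ABCG1 export cholesterol from cells and are targets of the liver X receptors, which respond to oxysterols. ABCA1 had 25.5, 18.8 and 16.6 FPKM in the fetal libraries and 8.76, 11.8 and 11.7 FPKM in the neonatal ones, without overlap (log2(FC) -0.85, standard error 0.22, adjusted p = 0.0654). It passed the threshold as lower after median-of-ratios scaling (adjusted p = 0.0228) and after quantile normalization (adjusted p = 0.0198). ABCG1 had 3.04 to 5.51 FPKM before and 1.64 to 2.74 FPKM after birth, again without overlap (log2(FC) -0.67, adjusted p = 0.168). The ratio of CYP51A1 to ABCA1 within a library went from between 0.349 and 0.520 in the fetal group to between 2.28 and 3.20 in the neonatal group. That gap follows from the opposite separation of both genes and adds no further evidence.

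NPC1 and NPC2 release cholesterol from lysosomes. NPC1 was level, at 4.61 to 8.17 FPKM before and 5.89 to 7.18 FPKM after birth (log2(FC) 0.07, adjusted p = 0.867), with a sign that turned under either scaling. NPC2 was the most abundant gene of the set, at 883, 640 and 769 FPKM in the fetal and 632, 1099 and 1330 FPKM in the neonatal libraries. Its neonatal values spread on both sides of the fetal ones (log2(FC) 0.36, standard error 0.39, adjusted p = 0.603), and its log2(FC) was -0.15 after quantile normalization.

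A list of 60 further genes of these pathways was looked up in the same way, and 38 had a row. Of these, 3 passed the threshold, all higher in the neonatal group and all from the sterol list, of which 10 genes had a row. Over all mRNAs 6.87% passed, 5.41% as higher, so 3 of 38 was near that share. Within the sterol list it was 3 of 10, which is above that share and was not tested. ACAT2, the thiolase of the first step, had 12.2, 11.8 and 10.1 FPKM before and 22.6, 30.0 and 36.7 FPKM after birth (log2(FC) 1.29, standard error 0.22, adjusted p = 0.0168). SCARB1, a receptor for high-density lipoprotein, was another (log2(FC) 1.24, adjusted p = 0.0302), with an adjusted p of 0.0520 after median-of-ratios scaling. None of the 9 further fatty acid genes and none of the 19 further glycerolipid genes passed in limma. In each list 3 had an unadjusted p under 0.05, which is 33.3% and 15.8% in turn, against 24.2% of all mRNAs. LPCAT1, which remodels phosphatidylcholine to its disaturated form, lay at 28.6 to 47.5 FPKM before and 25.3 to 54.2 FPKM after birth (log2(FC) -0.0041, adjusted p = 0.995).

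The calls rested on few animals. Over all mRNAs, 1001 passed with all libraries in the fit. That number was 944 without Neonatal1 and between 196 and 397 without any other single library. Lost calls were thus shared with the whole set of mRNAs. FADS1 and FDPS stayed past the threshold with any 1 of the 6 libraries left out, with adjusted p values of at most 0.0461 and 0.0491. CYP51A1, LSS and CHPT1 stayed when Neonatal1 was the library left out and lost the call with any of the other 5 left out, where their adjusted p reached at most 0.0754, 0.1445 and 0.1001. FADS2 stayed without Fetal1 or Neonatal1, and lay between 0.0606 and 0.0839 without Fetal2, Fetal3, Neonatal2 or Neonatal3. HMGCS1 and SREBF2 lost the call with any library left out, at 0.0552 to 0.144 and 0.0713 to 0.129. All 8 genes kept their direction in these fits. With the replicate number as a block in the fit, FADS1, FADS2, FDPS and CYP51A1 passed and the other 4 did not. Over all mRNAs, 401 passed with that block.

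Markers of other cells were looked up beside these genes, and of 5 lists the dividing cell markers and PLIN2 held the calls. A higher neonatal mean was found in 8729 of the 14579 mRNAs. Of 8 macrophage markers found, such as MARCO, 8 had a higher neonatal mean and 0 passed the threshold in limma (5 had an unadjusted p under 0.05), and their summed FPKM was 412.7 to 966.3 in the fetal and 705.7 to 1650 in the neonatal libraries, with the lowest neonatal value of all 8 in Neonatal1. Of 7 alveolar type II cell markers, 6 had a higher neonatal mean and 0 passed (1 had an unadjusted p under 0.05), and their sum was 4875 to 5446 and 6597 to 11790 FPKM, or 1.16% to 1.44% and 1.34% to 1.52% of all FPKM. Their median log2(FC) of 0.54 depended on scaling, since after quantile normalization it was 0.0043 with 4 of 7 higher. All 6 dividing cell markers found, among them TOP2A and MCM2, rose, with sums of 11.1 to 15.2 and 89.8 to 115.1 FPKM. Of 3 markers of lipid-storing fibroblasts, PLIN2, a lipid droplet coat protein also found in other cells, rose, between means of 4.30 ± 1.12 and 13.1 ± 1.06 FPKM (SD, n = 3 in either group, adjusted p = 0.0110). The other 2 did not pass, FGF10 with all neonatal values below the fetal ones (log2(FC) -0.40, adjusted p = 0.310) and WNT2 with overlap (log2(FC) 0.22, adjusted p = 0.567). The sum over all 3, 10.8 to 16.5 FPKM before and 19.7 to 23.4 FPKM after birth, is higher through PLIN2. Of 4 erythroid markers 0 passed in limma (0 had an unadjusted p under 0.05), and their sum was 1226 to 2675 and 892.8 to 1459 FPKM. After quantile normalization HBB passed as lower (adjusted p = 0.0260) and the macrophage marker CD68 as higher (adjusted p = 0.0493). With Cuffdiff on the reads, the authors report HBB as significantly higher in fetal lung. They also state that the genes they named were checked by qRT-PCR. The absence of a call in limma thus does not mean that HBB was level. No marker found was listed at 0 in all libraries of a group. The part of these cells in the differences of the lipid genes was not tested.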

How the data were processed

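Lung RNA of 3 fetal and 3 neonatal piglets was sequenced by the authors from strand-specific Ribo-Zero libraries, 1 per piglet. The deposited mRNA values are FPKM, which the authors obtained per gene with TopHat2 (2.1.0) on Sscrofa10.2 and Cufflinks (2.2.1), keeping mRNAs with FPKM above 0.5 in at least 1 sample. Low genes absent from this table could not be tested, and FPKM carry no counting error. All 6 columns were matched to samples by name. No values are equal and above 0 in any pair of libraries, so none is a copy of another. The labels number the piglets within groups, and p-values measure the spread between them. The lncRNA table was not used.

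Symbols came from a reference table for 9478 mRNAs and from the study's list of differentially expressed mRNAs for 362. Any gene named only through that list had thus already been called by the authors in these data. Differences were fitted on log2(FPKM + 1) over all mRNAs with limma 3.58.1 under R 4.3.3, letting the variance follow the mean level, with Benjamini-Hochberg adjustment. Cuffdiff, which the authors used on reads, could not be run on FPKM. Lists were described by counts and medians, with no test. Summaries and plots used Python 3.11.15, pandas 2.3.3 and matplotlib 3.10.9. On simulated tables with the spread of the real 14579 mRNAs, the fit called 0 of 200 genes given a log2 change of 1, 147 of 200 given 2 and 194 of 200 given 4. Only those 200 genes changed there, while 1001 mRNAs passed in the data, and the adjusted p depends on how many genes change. The simulation therefore does not give the smallest change the real fit could call, which included CHPT1 at -0.88. With 3 against 3, an exact permutation test cannot go below a two-sided p of 0.1, and none is given.

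Every member could be named. Values in all samples are given for members past the threshold, for regulators, and for the 2 members of each branch with the highest mean FPKM, and for further members of a branch where the order of the pathway is followed, a choice made with the values known. Other pathway genes and markers were named where they passed or stood beside a member. The members and lists were chosen with earlier results of these data known. Alternatives were pseudocounts of 0.5 and 0.1, a stricter filter (FPKM over 1 in 3 or more samples), quantile normalization, median-of-ratios scaling, no variance trend, a replicate block and each sample left out. The share of summed FPKM was added after the data were seen. Promoter and protein sequences were not analysed here. Some genes of the list of further pathway genes are counted there but not reported here by name.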

Additional observations from a re-analysis of the deposited data

How the results depend on the processing

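Across the alternatives, 425 of 479 pairs of a member and a setting kept their direction and side of the threshold. Most pairs belong to members not past the threshold in the main fit. In 37 pairs a call was lost, all of them from the members that had passed. No member past the threshold changed its sign. Of 37 members, 8 passed, and 7 of these were higher. With the replicate block 4 passed, 4 higher and 0 lower, and 0 of the other pathway genes. The numbers name piglets of different sows, and 0 of 6 samples correlated best with the sample of their own number, so a call lost under the block is not read as a smaller effect. It changed no other member's call. Passing as lower were 2 members after median-of-ratios scaling and 3 after quantile normalization. With each sample left out, 2 to 7 members passed, 2 to 6 higher and 0 to 1 lower, and 0 to 2 other pathway genes. The 2 low members PCYT1B and IDI1 were dropped by the stricter filter, under which 9 members passed, DHCR7 among them.

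Medians moved with scaling. That of all members was 0.31 after quantile normalization. After median-of-ratios scaling and quantile normalization it was 0.41 and 0.40 for the regulators, -0.060 and -0.092 for the fatty acid genes, and -0.42 and -0.42 for the phosphatidylcholine genes. With samples left out it ranged from 0.52 to 0.67 for the regulators, from 0.025 (without Fetal3) to 0.24 (without Fetal1) for the fatty acid genes, which also moved by over 1.5 times without Fetal2 (0.053), Neonatal1 (0.046) or Neonatal2 (0.18), from -0.28 to -0.13 (without Fetal2) for the phosphatidylcholine genes and from -0.42 (without Fetal2) to -0.13 (without Fetal1) for the transport genes, with -0.20 without Neonatal1. Signs of members not past the threshold turned for SC5D (-0.065 and -0.099) and NPC1 (-0.079 and -0.071) under these scalings in turn, and for NPC2 (-0.15) after quantile normalization. With samples left out the ranges were -0.31 to 0.16 for INSIG1, -0.21 to 0.034 for ACSL4, -0.045 to 0.21 for SC5D and -0.085 to 0.27 for NPC1. Beyond their construction, the cause of these changes was not tested. Without counts, depth limits could not be given.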
